A study of Drosophila melanogaster with 6 samples.

Results

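The genes described here encode subunits of the last steps of mitochondrial respiration in Drosophila: complex III, cytochrome c, complex IV and the ATP synthase. They were chosen by symbol, as genes whose names start with UQCR-, COX or ATPsyn, with blw, Cyt-c1, Cyt-c-p and Cyt-c-d added. The rule found 38 of 13682 genes in the gene tables. Of these, 7 encode complex III subunits, 1 is the main cytochrome c, 7 encode complex IV subunits and 12 ATP synthase subunits. The other 11 are paralogs, which are Cyt-c-d and 10 genes whose symbols end in L, and they are shown apart from the 27 core genes. RNA came from indirect flight muscle (IFM, the fibrillar muscle that drives the wings), brain and whole leg of w1118 pupae, 72 h after puparium formation (APF) at 27 °C. Each tissue had 2 libraries, 6 in all, and no further treatment or allele distinguished the groups. The labels name GENEWIZ for mRNA selection of IFM and LC Sciences for brain and leg, so in every comparison with IFM the provider and the tissue cannot be told apart.

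Complex III takes electrons from ubiquinol and hands them to cytochrome c, a small soluble carrier, and complex IV passes them on to oxygen. Both complexes pump protons across the inner mitochondrial membrane, and the ATP synthase uses the return flow to make ATP. Flight muscle is known for dense mitochondria packed between its myofibrils. For several of these nuclear genes Drosophila holds a second copy, and such copies are often most active in the testis.

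Expression was read from counts in exon bins, the pieces of annotated exons that the authors counted reads over, summed per gene. The libraries held between 67091219 and 177964590 such counts, and 36 of the 38 members had bins among 12392 genes with them. ATPsynC, the subunit of the membrane ring, and COX6B had none and were followed only by their splicing events. A read over several bins can count in each of them. Neighbouring bins of ATPsynG, of 2 and 36 bases, held the same 12893 counts in IFM exon library 1. Levels, shares and ranks compared between genes therefore depend on how each gene is cut into bins. Levels are CPM, the usual count scaled to library size, after TMM scaling, which sets libraries to a common level through genes that differ little. The exon columns carry tissue names but no replicate numbers, so the libraries are called exon library 1 and 2 of a tissue. The tissue labels were checked on marker genes. Summed CPM of 10 muscle markers lay at 302350 and 437980 in IFM, 147360 and 143060 in leg and 17324 and 13631 in brain. Summed CPM of 6 neuron markers was 7310 and 5017 in brain against 222.5 to 652 in the other tissues. IFM also held RNA of testis and sperm markers, with 2260.5 and 782 CPM over 24 genes against 42 to 118.5 in brain and leg. Of these 24 genes, 21 were highest in IFM. All 3 fat body markers were highest in IFM too, with summed CPM of 1181 and 952 against 228 to 366 in brain and leg. The part of testis, sperm or fat body RNA in the IFM differences of the members was not tested.

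Nearly all core genes followed a single order, highest in IFM, lower in leg and lowest in brain. Of the 25 core genes with bins, 24 rose in IFM against both other tissues and were lower in brain than in leg. The exception, COX7A, ran the other way in all 3 comparisons. The median log2 fold change of the 24 genes was 2.43 for IFM against leg (1.97 to 3.02) and 3.54 for IFM against brain (3.14 to 4.59). For brain against leg it was -1.18 (-1.60 to -0.86). Over all 12345 genes tested the medians were 0.08, -0.01 and 0.03. Among all 36 members with bins, 32 rose and 2 fell in IFM against leg, where 57.4% of all genes passed the test and 29.8% were higher in IFM. Against brain 32 rose and 2 fell, where 66.6% of all genes passed and 33.1% were higher in IFM. In brain against leg 2 members rose and 24 fell, where 43.5% of all genes passed and 20.9% were higher in leg. In bulk RNA, fewer cells of a type and less RNA per cell cannot be told apart, and the muscle markers lay in the same order as the 24 genes, IFM above leg above brain; their part in the difference was not tested.

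**Figure D1:**
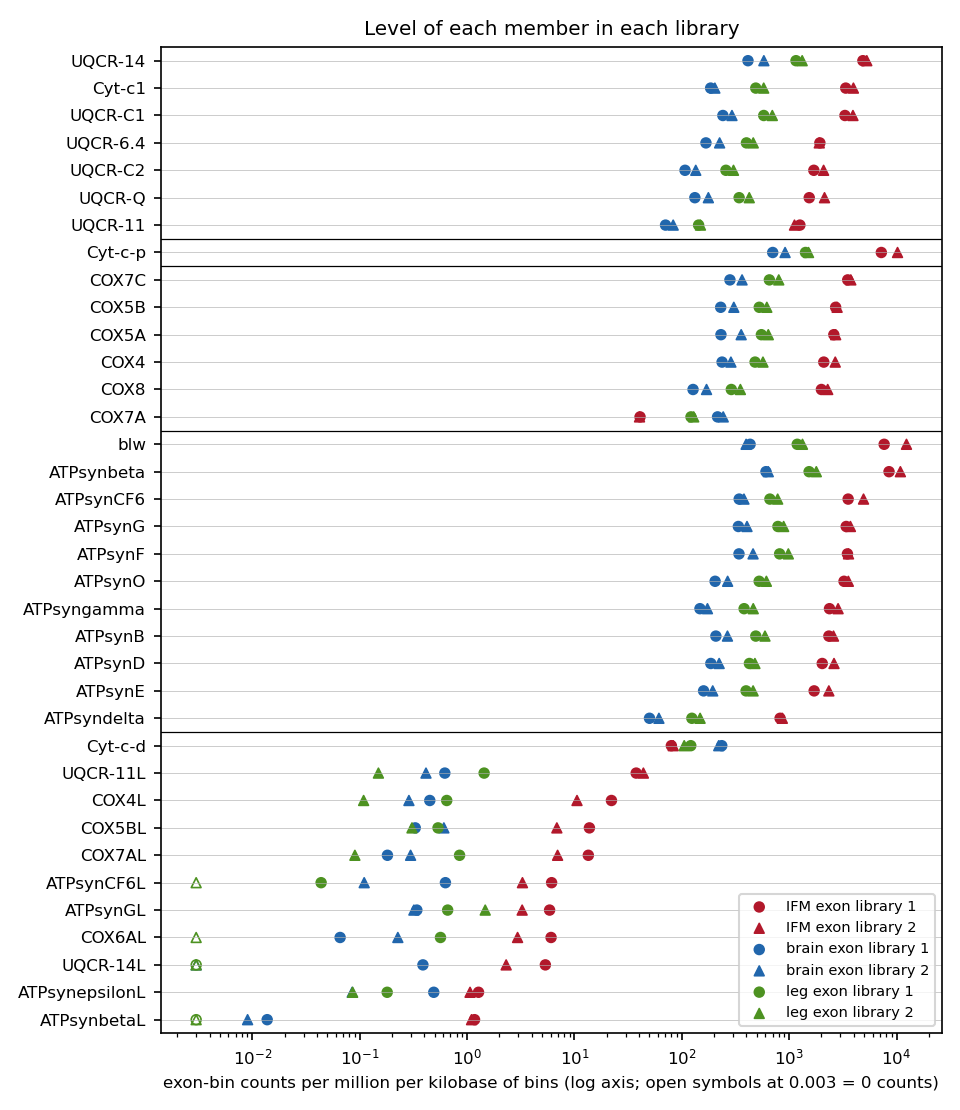
Level of each member with exon bins in the 6 exon libraries, as CPM per kilobase of bins on a log axis, with 1 symbol per library and members grouped by role. For 24 of the 25 core genes the red IFM symbols lie to the right of the green leg and the blue brain symbols; COX7A has the reverse order, and the paralogs other than Cyt-c-d lie far to the left.

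The IFM differences of the 24 core genes held under all settings tried, including the exclusion of any single library. The difference between brain and leg did not. Without leg exon library 2 only 7 of the 24 genes passed, and with total counts in place of TMM only 3 did, namely blw, ATPsyngamma and Cyt-c1. With total counts the median of the 24 genes for brain against leg was -0.40, while that of all genes moved to 0.81. Total counts moved the median of all genes to -0.48 for IFM against leg and -1.37 for IFM against brain, and the 24 genes still had medians of 1.85 and 2.17.

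By CPM the ATP synthase held the 2 most abundant of the members with bins in every tissue, ATPsynbeta and blw. ATPsynC, without bins, is outside this ranking. Its gene mean by the authors, 446504 for IFM and leg, lay between those of ATPsynbeta (466468) and blw (426553). The order was the same in their other gene tables. Per kilobase, of the members with bins, blw was the highest in IFM, ATPsynbeta in leg and Cyt-c-p in brain. The 11 ATP synthase subunits with bins rose in IFM by a median log2 of 2.54 against leg and 3.55 against brain. The alpha and beta subunits form the catalytic head. The alpha subunit, encoded by blw (2R), had 17273 and 27882 CPM in the IFM libraries, 2679 and 2996 in leg and 974 and 895 in brain. No library of a tissue overlapped with another tissue. With 2 libraries per tissue such separation was common among all 12345 genes tested. It held for 82.4% of them in IFM against leg, 85.9% in IFM against brain and 73.3% in brain against leg. For blw the log2 fold change was 2.99 ± 0.37 (SE, adjusted p = 0.0011) against leg and 4.59 ± 0.40 (adjusted p = 0.00015) against brain. In brain against leg it was -1.60 ± 0.35 (adjusted p = 0.012). ATPsynbeta (chromosome 4) had 20314 and 25920 CPM in IFM, 3660 and 4272 in leg and 1451 and 1525 in brain. It too kept the tissues apart, with log2 fold changes of 2.54 ± 0.33 (adjusted p = 0.0012), 3.96 ± 0.35 (adjusted p = 0.00016) and, for brain against leg, -1.41 ± 0.31 (adjusted p = 0.012). In IFM blw alone took 1.19% and 1.67% of all exon counts and ATPsynbeta 1.39% and 1.55%. All members with bins took 6.51% and 7.24% of the exon counts in IFM, 1.64% and 1.89% in leg and 1.15% and 1.45% in brain.

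Since alpha and beta stand in the complex in equal number, their levels per kilobase were set side by side. The ratio of blw to ATPsynbeta was 0.901 and 1.14 in the IFM libraries, 0.776 and 0.743 in leg and 0.711 and 0.622 in brain. The IFM ratios lay above those of both other tissues, though the IFM libraries also differed from each other by more than brain and leg libraries did among themselves, and the difference was not tested. The remaining subunits moved alongside. ATPsyngamma, the rotating shaft, had 3468 and 4169 CPM in IFM, 556 and 676 in leg and 216 and 253 in brain. Its log2 fold changes were 2.63 ± 0.25 (adjusted p = 0.00036) and 4.03 ± 0.26 (adjusted p = 5.1e-05). The smallest IFM difference in the ATP synthase belonged to ATPsynF, a membrane subunit, at 1.97 ± 0.24 against leg (adjusted p = 0.00094) and 3.14 ± 0.25 against brain (adjusted p = 0.00010).

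In complex III all 7 subunits rose in IFM, with medians of 2.50 against leg and 3.76 against brain. The highest per kilobase was UQCR-14, with 2542 and 2764 CPM in IFM, 606 and 692 in leg and 216 and 304 in brain. All 3 bins of UQCR-14 lie under exons of CG32576 on the opposite strand, and its value without shared bins could not be given. Cyt-c1, the subunit that hands electrons to cytochrome c, had 5119 and 6033 CPM in IFM, 743 and 881 in leg and 282 and 309 in brain. Its libraries kept the order of the tissues without overlap, and its log2 fold change was 2.78 ± 0.25 against leg (adjusted p = 0.00031) and 4.24 ± 0.26 against brain (adjusted p = 4.5e-05). UQCR-11 had 2030 and 1809 CPM in IFM, 231 and 241 in leg and 114 and 134 in brain. Its difference of 3.02 ± 0.20 from leg (adjusted p = 0.00013) was the largest of the core genes in that comparison. The core proteins followed the same course. UQCR-C1 had 5400 and 6410 CPM in IFM against 947 and 1137 in leg and 394 and 479 in brain.

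Cyt-c-p is the main cytochrome c of somatic cells. It had 4917 and 6959 CPM in IFM, 967 and 1032 in leg and 479 and 624 in brain. The tissues did not overlap, and the log2 fold change was 2.57 ± 0.30 against leg (adjusted p = 0.00078) and 3.43 ± 0.31 against brain (adjusted p = 0.00017). In brain against leg Cyt-c-p had the smallest difference of the 24 genes, at -0.86 ± 0.28 (adjusted p = 0.049).

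In complex IV, 5 of the 6 subunits with bins rose in IFM. COX7C, the highest per kilobase, had 2212 and 2363 CPM in IFM, 412 and 504 in leg and 177 and 229 in brain. COX5B, the next highest, had 1976 and 2040 CPM in IFM, 384 and 452 in leg and 168 and 222 in brain. COX8 had 1024 and 1173 CPM in IFM, 148 and 180 in leg and 65.3 and 87.2 in brain, with the largest IFM differences of the complex at 2.74 ± 0.23 (adjusted p = 0.00025) and 3.85 ± 0.24 (adjusted p = 4.5e-05). In these 3 genes both IFM libraries stood well above all others. COX7A, a small subunit on 3R, had 28.5 and 28.2 CPM in IFM, 84.9 and 90.0 in leg and 150 and 170 in brain. It was thus the only core gene that was lowest in IFM and highest in brain, again without overlap. Its log2 fold change was -1.63 ± 0.14 against leg (adjusted p = 0.00026), -2.50 ± 0.14 against brain (adjusted p = 3.5e-05) and 0.87 ± 0.14 for brain against leg (adjusted p = 0.0030). COX7A kept these directions and calls under all settings tried. Per kilobase, COX7A reached 40.6 CPM in IFM, where the median of the 6 complex IV genes was 2526.

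**Figure D2:**
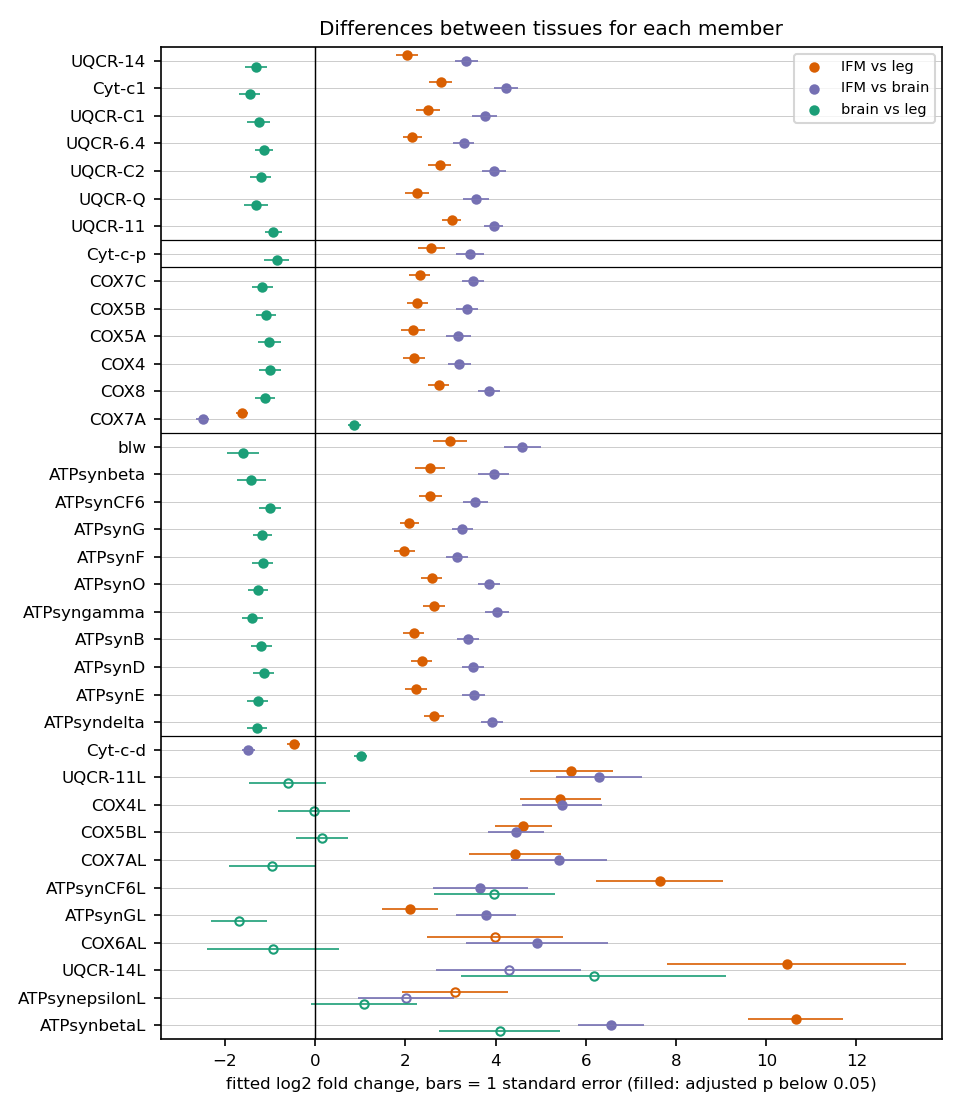
Fitted log2 fold change of each member for IFM against leg, IFM against brain and brain against leg, with bars of 1 standard error and filled symbols where the adjusted p was below 0.05. The core genes lie at about the same place in each comparison except COX7A, while the paralogs have wide bars; fitted values against tissues at 0 counts, as for ATPsynbetaL and UQCR-14L in leg, depend on the prior count and are no measured fold.

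Other genes of respiration moved with them. Of 39 complex I genes with symbols starting ND-, 36 were tested and all 36 rose in IFM against leg and brain, with medians of 2.38 and 3.43. In brain against leg 28 of them fell and ND-B8 rose, the latter at 0.231 and 0.140 CPM in brain and 0.0556 and 0.0397 in leg. All 6 complex II genes rose in IFM in both comparisons, among them the paralogs SdhAL and SdhBL. These 2 were scarce and uneven between the IFM libraries, at 7.56 and 2.44 CPM for SdhAL and 26.1 and 9.44 for SdhBL. SdhAL passed narrowly, with an adjusted p of 0.047 against leg and 0.048 against brain. Subunits of the same 3 complexes that carry other names (levy, cype, ox, RFeSP and sun) had medians of 2.27, 3.33 and -1.01, and all 5 passed in each comparison. The assembly factors Surf1 and Scox of complex IV and Ttc19 of complex III also rose in IFM. Surf1 had 113 and 107 CPM in IFM, 9.82 and 11.3 in leg and 4.90 and 5.50 in brain.

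Known regulators of nuclear or mitochondrial genes of respiration did not share a direction. Of 6 tested, 2 rose and 2 fell in IFM against leg, and 2 rose and 3 fell against brain. The 2 that rose in both comparisons, TFAM and the transcription factor mtTFB2, act on mitochondrial DNA. TFAM, which packs it, had 127 and 133 CPM in IFM, 19.1 and 25.2 in leg and 13.2 and 14.3 in brain. None of the other factors tested was called higher in IFM in either comparison. The nuclear receptor ERR fell, at -0.94 against leg (adjusted p = 0.0064) and -1.49 against brain (adjusted p = 0.00070), and Ets97D fell in both as well. The factor encoded by ewg fell against brain by 1.96 and did not pass against leg, at -0.37. For srl, the PGC-1 homologue, neither IFM comparison passed, with log2 values of 0.01 and 0.44.

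The 10 paralogs with symbols ending in L were scarce in every tissue and had their highest level in IFM. None exceeded 19.4 CPM in any library. Against leg, 8 of the 10 rose in IFM, and against brain 8 of the 10. UQCR-11L was the most abundant, with 16.7 and 19.4 CPM in IFM, 0.639 and 0.0662 in leg and 0.275 and 0.184 in brain. Its log2 fold change was 5.68 ± 0.93 against leg (adjusted p = 0.0032) and 6.29 ± 0.95 against brain (adjusted p = 0.0016). COX4L had 16.2 and 7.72 CPM in IFM, 0.472 and 0.0795 in leg and 0.328 and 0.210 in brain. Both genes were higher in each IFM library than in any other library.

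COX5BL, which starts just beyond COX5B and has no bin free of exons of Trmt6, had 8.92 and 4.44 CPM in IFM, 0.347 and 0.199 in leg and 0.213 and 0.394 in brain. COX7AL had 7.91 and 4.09 CPM in IFM, 0.50 and 0.0530 in leg and 0.106 and 0.175 in brain. In IFM, where COX7A was low, COX7AL reached 27.8% and 14.5% of the CPM of COX7A. For the other paralogs with symbols ending in L that share of the partner was at most 1.07% in IFM. ATPsynCF6L had 3.89 and 2.08 CPM in IFM, 0.0278 and 0 in leg and 0.399 and 0.0700 in brain. Its leg value rests on 2 counts, which give a ratio of 205 (exact Poisson 95% interval 56.4 to 1696, counting error only). ATPsynGL had 3.21 and 1.78 CPM in IFM, 0.361 and 0.808 in leg and 0.186 and 0.175 in brain.

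ATPsynbetaL, with 2.27 and 2.13 CPM in IFM and 0.0266 and 0.0175 in brain, had no count in leg. With leg set to a floor of 3 counts over the tissue, its ratio of IFM to leg was 107. The lower end of the exact Poisson interval, for counting error only, was 87.0. UQCR-14L had 2.7 and 1.16 CPM in IFM, 0.195 and 0 in brain and no count in leg. With the same floor its ratio of IFM to leg was 86.1, and the lower end of the interval was 69.6. Against brain UQCR-14L did not pass (adjusted p = 0.063). COX6AL, with 3.27 and 1.6 CPM in IFM, passed against brain (adjusted p = 0.031) and not against leg (adjusted p = 0.061). ATPsynepsilonL lay at 0.394 and 0.329 CPM in IFM and at most 0.151 elsewhere, and passed in neither comparison. Several of these calls rest on single libraries. Without IFM exon library 1, ATPsynGL (adjusted p = 0.16), COX7AL (0.051) and UQCR-14L (0.074) did not pass against leg, nor did ATPsynCF6L (0.099) and COX6AL (0.11) against brain. UQCR-14L also missed the threshold against leg without IFM exon library 2 (0.057) and ATPsynGL without leg exon library 1 (0.10). COX6AL also failed to pass against brain without IFM exon library 2 (0.065), brain exon library 1 (0.14) or brain exon library 2 (0.089), and without brain exon library 2 neither did ATPsynCF6L (0.070). Scaling mattered as well. With total counts in place of TMM, 7 of the 10 rose against leg and 6 against brain, and ATPsynGL against leg (0.097), ATPsynCF6L against brain (0.084) and COX6AL against brain (0.079) did not pass. ATPsynGL also missed the threshold against leg when the highest bin stood for the sum (0.065). Other calls appeared when a library was left out. UQCR-14L passed against brain without brain exon library 1 (0.014), leg exon library 1 (0.029) or leg exon library 2 (0.035). Against leg COX6AL passed without leg exon library 1 (0.0049), and ATPsynepsilonL without brain exon library 1 (0.043) or 2 (0.039).

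The IFM libraries differed in the paralogs in a way they did not in the core genes. The ratio of IFM exon library 2 to library 1 had a median of 1.14 over the 25 core genes (0.891 to 1.61). Over the paralogs, with Cyt-c-d taken from its 1 unshared bin, it was 0.517 (0.432 to 1.17). The 24 testis and sperm markers had a median of 0.360 (0.304 to 0.552). UQCR-11L at 1.17, ATPsynbetaL at 0.937 and ATPsynepsilonL at 0.834 lay nearer to the core genes. Whether RNA of testis or sperm in the IFM libraries contributed to the paralog counts was not tested.

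**Figure D3:**
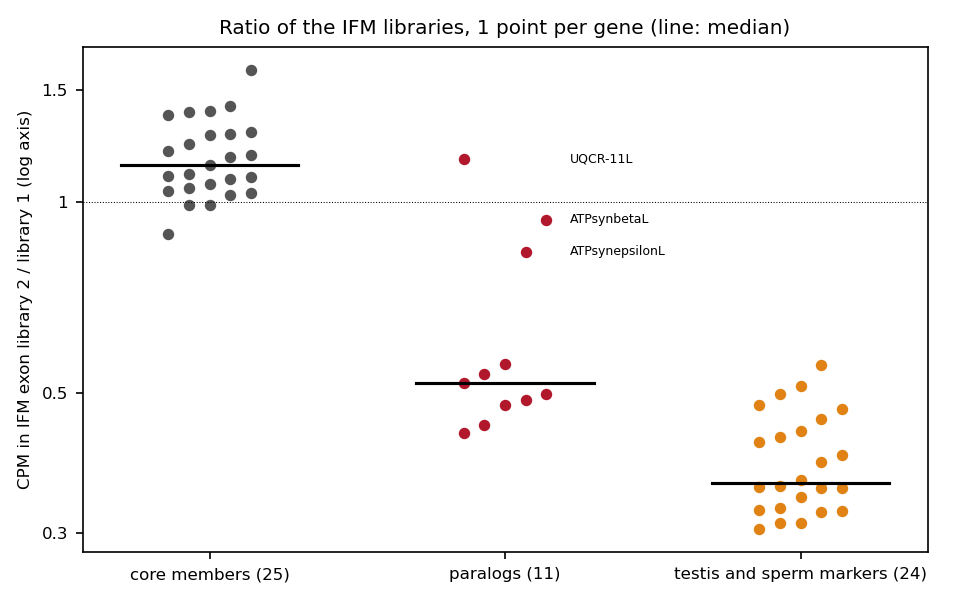
Ratio of the CPM in IFM exon library 2 to that in IFM exon library 1 on a log axis, with 1 point per gene and a line at the median of each group. Core members lie around 1.14, 8 of the 11 paralogs lie near 0.5 (Cyt-c-d by its unshared bin), and the testis and sperm markers lie between 0.304 and 0.552.

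Cyt-c-d, the second cytochrome c, is known in Drosophila for its need in sperm maturation, and its 2 readings disagreed. From all bins it had 66.9 and 69.7 CPM in IFM, 101 and 88.2 in leg and 197 and 185 in brain, and so was lowest in IFM, at -0.47 ± 0.14 against leg (adjusted p = 0.031) and -1.48 ± 0.15 against brain (adjusted p = 0.00025). The call against leg was lost when any of the IFM or leg libraries was left out (adjusted p = 0.071 to 0.24). Its first 2 bins lie under exons of CG31808 on the opposite strand, a gene with 172 and 241 CPM in IFM, 456 and 408 in leg and 1008 and 948 in brain. The third bin of Cyt-c-d, of 510 bases, is not shared, and held 12.0 and 5.36 CPM in IFM, 1.63 and 0.543 in leg and 1.69 and 1.15 in brain. By this bin alone, an alternative added after seeing the data, Cyt-c-d was higher in IFM, by a log2 of 3.04 against leg (adjusted p = 0.011) and 2.65 against brain (adjusted p = 0.014). The authors' own gene mean for brain and leg came to 0.461% of the mean exon count for Cyt-c-d, where other members lay between 22.6% and 52.7%. Of the 36 members with bins, 11 had a bin under another gene's exon. Leaving out such bins moved the log2 fold changes of members other than Cyt-c-d by at most 0.37, with UQCR-14 and COX5BL not measurable that way.

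Exon use asks whether a bin takes a larger or smaller part of its gene's counts in a tissue. Of 152 member bins in 33 genes, 20 differed between IFM and leg (8 higher and 12 lower in IFM), where 3.85% of all 60339 bins did, 1.65% higher and 2.21% lower. Between IFM and brain 27 differed (9 higher and 18 lower in IFM), where 7.0% of all bins did, 2.86% higher and 4.15% lower. Between brain and leg 10 differed (7 higher and 3 lower in brain), where 4.15% did, 2.36% higher and 1.8% lower. No fully coding bin was among them. In the IFM comparisons the called bins were 16 and 20 untranslated bins, and 4 and 7 that hold coding bases in part. The make-up of the 152 tested bins was not counted, so these numbers show no preference for untranslated bins. In each comparison 3 called bins lay under an exon of a gene on the opposite strand. They were the first bins of ATPsynbeta (CG11076) and COX7C (oys) and the sixth of ATPsyndelta (CG2962). The smallest adjusted p of the members was among them, for COX7C at 2.0e-09 (IFM against leg) and 1.2e-11 (IFM against brain). In brain against leg it was 3.6e-06, for ATPsyndelta. Reads of these neighbours cannot be told apart if strand was not used in counting. The counts of called bins rest on few libraries. For IFM against leg 9, 7, 9 and 7 bins passed without IFM exon library 1, IFM exon library 2, leg exon library 1 or leg exon library 2. For IFM against brain 17 passed without IFM exon library 1 or brain exon library 1 and 15 without brain exon library 2. For brain against leg 5 passed without either brain library or leg exon library 1 and 6 without leg exon library 2.

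Bins are numbered along the chromosome. Those that were lower in IFM lay mostly towards the start of the transcript. Of the 12 lower against leg 10 lay in the 5′ part of the gene's bins, before the midpoint of their summed length, and of the 18 lower against brain 15 did. Of the bins higher in IFM, 4 of 8 against leg and 4 of 9 against brain lay in that part. The share of all tested bins that lie there was not computed. For blw the first bin, of 171 bases, held 5.83% and 5.84% of the gene's counts in IFM, 14.2% in each brain library, and 14.0% and 14.5% in leg. Brain and leg overlapped and IFM lay far below both, with a log2 change of use of -1.29 against leg (adjusted p = 0.011) and -1.28 against brain (adjusted p = 0.0064). The first bin of COX4, of 52 bases (2L, 19958713 to 19958764), held 5.09% and 5.46% in IFM, 13.5% and 13.8% in leg and 13.4% and 14.2% in brain. The first bin of ATPsynB held 3.55% and 4.10% in IFM against 9.47% to 11.1% elsewhere. A bin of COX5A, of 46 bases, held 3.16% and 3.64% in IFM against 10.3% to 12.5% elsewhere. In all 4 genes each IFM library lay below every brain and leg library.

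This shift reached beyond the members. The place of a gene's counts was computed as their mean distance along its bins, from 0 at the 5′ end to 1 at the 3′ end, for 7666 genes with at least 50 counts in each library and at least 2 bins. Over these genes the median place was 0.506 and 0.503 in IFM, 0.483 and 0.482 in leg and 0.480 and 0.482 in brain. Over the 25 core genes it was 0.478 and 0.477 in IFM, 0.428 and 0.431 in leg and 0.438 and 0.439 in brain. Both IFM libraries lay further 3′ than both brain libraries in 21 of the 25 core genes and in 61.1% of all genes. Against leg they did so in 23 of the 25 and in 58.7% of all genes. Cyt-c1 and Cyt-c-p lay further 5′ in IFM than in both tissues, and ATPsyndelta further 5′ than in brain. The part of this shift, or of the library provider, in the exon use of the members was not tested.

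**Figure D4:**
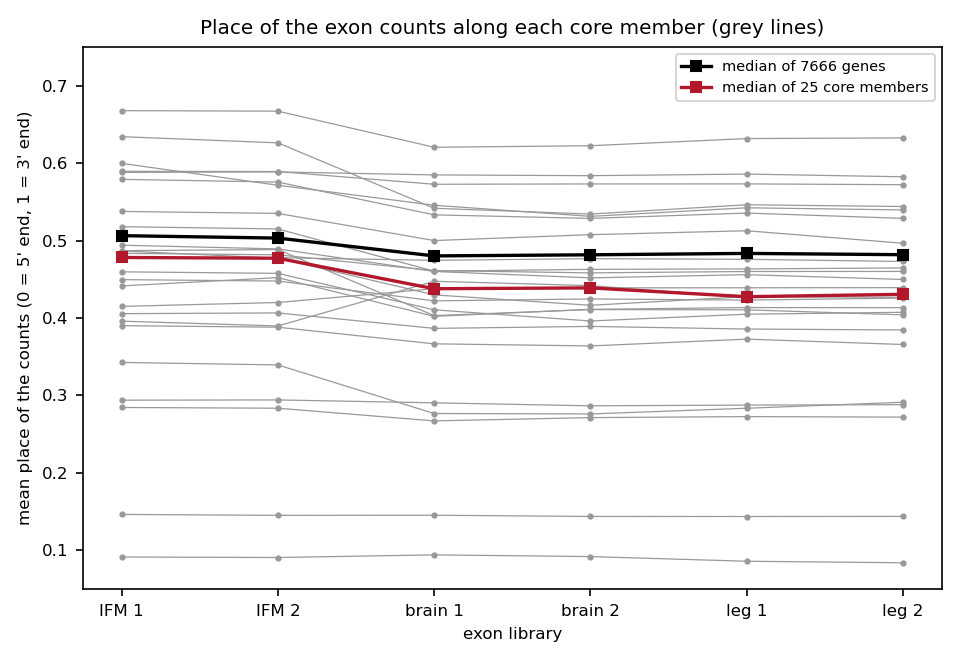
Mean place of the exon counts along each of 25 core members (grey lines) in the 6 exon libraries, from 0 at the 5′ end to 1 at the 3′ end. The medians of the core members (red) and of 7666 genes (black) are both higher in the IFM libraries, at 0.478 and 0.506 in the first, than in brain and leg.

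Some bins went beyond that pattern. The fourth bin of COX5B (2L, 6559150 to 6559308) is the last before the paralog COX5BL and is untranslated. It held 33.0 and 31.4 CPM in IFM, 1.3 and 1.43 in leg and 0.213 and 0.341 in brain. As a part of COX5B that is 1.67% and 1.54% in IFM, 0.344% and 0.317% in leg and 0.127% and 0.153% in brain. All tissues were apart, with a log2 change of use of 2.28 against leg (adjusted p = 1.2e-05), 3.49 against brain (adjusted p = 8.6e-08) and -1.21 for brain against leg (adjusted p = 0.019). The first bin of COX7C (2R, 10048353 to 10048486) went the other way. It held 0.0856% and 0.0870% of the gene's counts in IFM, 1.08% and 1.19% in leg and 3.34% and 2.06% in brain, but it lies under an exon of oys, whose reads cannot be told apart from it here if strand was not used in counting.

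In COX4 the fourth bin, an untranslated stretch of 357 bases found in 1 of 4 transcripts, was used most in brain. It held 1.36% and 0.984% of the gene's counts there, 0.367% and 0.314% in IFM, and 0.436% and 0.358% in leg. IFM and leg overlapped and brain stood above both, with a log2 change of 1.54 for brain against leg (adjusted p = 7.3e-05) and -1.76 for IFM against brain (adjusted p = 2.6e-06). Bins 1, 3 and 7 of UQCR-Q, all untranslated, were used more in IFM in both comparisons, with bin 7 at 1.42% and 1.28% in IFM against 0.426% to 0.619% in the other libraries. The calls of bins 1 and 3 rest on few counts. Bin 1 had 66 and 56 in IFM and 0 in every brain and leg library. Bin 3 had 147 and 166 in IFM and at most 6 elsewhere.

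Splicing events were counted by fortuna, a tool that pseudoaligns reads to fragments of guessed transcripts and lists reads over introns that its annotation lacks. The libraries held between 554656 and 3507067 such reads, and the 2 IFM libraries held the most. The members had 263 events in 27 genes, of which 24 are core genes. They occupied 244 distinct coordinates, since an event can be listed under more than 1 type with the same reads. Exon skips were the most frequent type (87), followed by alternative donor and acceptor pairs (46), introns within exons (42), alternative donors (31), alternative acceptors (29), retained introns (25) and 3 others. Members took 6.78% and 7.13% of all event reads in IFM, 0.698% and 0.817% in leg and 0.262% and 0.369% in brain. Most events were thinly read, with 130 at 5 reads or fewer over all libraries and 80 at 50 or more.

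Of the 263 events, 26 coincided with an intron of the annotation used here (BDGP6.54). None of these 26 had reads in all libraries and 13 had reads in 1 library only. The largest was an intron of UQCR-14 (X, 16286449 to 16286565), with 10282 and 26412 reads in IFM and 0 in each brain and leg library, although its gene was well expressed there. The same intron is annotated for the opposite gene CG32576. Since annotated introns were listed irregularly, this one is not read as a difference of splicing.

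Event reads as such were mostly higher in IFM. Of 80 member events tested, 55 were higher in IFM than in leg and none lower, where 42.7% of all 16595 events passed, 24.7% higher in IFM and 18.0% higher in leg. Against brain 67 were higher in IFM and none lower, where 63.5% passed, 33.3% higher in IFM and 30.2% higher in brain. In brain against leg 17 were lower in brain and none higher, where 34.8% passed, 16.4% higher in leg and 18.4% higher in brain. Annotated introns made up 4, 8 and 2 of these calls. In brain against leg only 7 passed without brain replicate 1, 10 without brain replicate 2, 11 without leg replicate 1 and 9 with total counts. Events were then set against the exon counts of the gene, as a description with no test. The median of event reads per exon counts was 0.742% in IFM, 0.0594% in leg and 0.0908% in brain over 22 core genes, and 1.72%, 0.520% and 0.528% over all genes with listed events and at least 1000 exon counts in the tissue. These medians were highest in IFM in both sets.

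To separate splicing from expression, events were also tested relative to the expression of their locus. Of 59 member events in 16 genes, 23 differed between IFM and leg (19 higher and 4 lower in IFM), where 23.6% of all 14785 events did, 13.7% higher and 9.97% lower. Between IFM and brain 25 differed (18 higher and 7 lower), where 25.1% did, 13.5% higher and 11.5% lower. Between brain and leg none passed in edgeR, the only tool run for this test, with 7 at an unadjusted p under 0.05 and 2.54% of all events called, 1.44% higher and 1.1% lower in brain. The direction depended on the scaling. With total counts in place of TMM the split of higher and lower calls became 16 and 10 against leg and 8 and 18 against brain. Scaled to the exon counts of the tissue, an alternative added after seeing the data, it was 30 and 0 against leg and 26 and 3 against brain. Without IFM replicate 2 only 12 events passed against brain.

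Apart from the annotated intron of UQCR-14, the 4 events with most reads in IFM were skips of coding exons. In blw a skip of 2 exons with 1383 coding bases, a multiple of 3 (2R, 22799269 to 22801483), had 28196 and 66838 reads in IFM, 1963 and 2141 in leg and 497 and 672 in brain. These came to 2.31% of the exon counts of blw in IFM, 0.979% in leg and 0.551% in brain. Relative to its locus it did not pass, with log2 values of -0.02 ± 0.36 against leg (adjusted p = 0.98) and 0.79 ± 0.37 against brain (adjusted p = 0.13). A shorter skip from the same donor leaves out 1 exon with 581 coding bases, which is not a multiple of 3. It had 5216 and 13011 reads in IFM, 47 and 75 in leg and 27 and 28 in brain, and it rose relative to its locus, by 2.65 ± 0.43 (adjusted p = 0.0028) and 2.84 ± 0.44 (adjusted p = 0.0022).

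ATPsynC had the next largest skip (3R, 31217177 to 31218943), of 1 exon with 205 coding bases, which is not a multiple of 3. It had 21410 and 41488 reads in IFM, 426 and 554 in leg and 222 and 197 in brain. No library of IFM came near the others, and as reads the event rose by a log2 of 4.45 against leg (adjusted p = 5.1e-05) and 6.17 against brain (adjusted p = 1.7e-05). Without exon bins for ATPsynC a test relative to its locus could not be made.

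Several other skips were higher in IFM relative to their locus. In ATPsynbeta the skip of an exon with 330 coding bases (chromosome 4, 1031953 to 1033272) had 7516 and 15172 reads in IFM, 117 and 131 in leg and 74 and 88 in brain. It rose by 2.43 ± 0.38 against leg (adjusted p = 0.0022) and 2.25 ± 0.37 against brain (adjusted p = 0.0032). ATPsynO encodes a protein of the peripheral stalk. Its skip of 444 coding bases (3R, 15265690 to 15266433) had 2723 and 3959 reads in IFM, 17 and 24 in leg and 13 and 15 in brain. It made up 1.40% of the gene's exon counts in IFM, 0.0607% in leg and 0.0651% in brain, and rose by 3.28 ± 0.43 (adjusted p = 0.00092) and 3.19 ± 0.43 (adjusted p = 0.0012). In both skips the length left out is a multiple of 3.

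In complex III, Cyt-c1 skipped 2 exons with 282 coding bases (3L, 5360739 to 5361695) in 7305 and 12721 reads in IFM, 52 and 103 in leg and 134 and 120 in brain. Relative to its locus this event rose against leg, by 2.71 ± 0.42 (adjusted p = 0.0024), and did not pass against brain (1.19 ± 0.40, adjusted p = 0.054). In UQCR-C1 a skip of 4 exons (3R, 14890261 to 14891785) had 1531 and 2602 reads in IFM and 12 to 16 in each other library. It rose by 3.15 ± 0.41 (adjusted p = 0.00092) and 2.59 ± 0.41 (adjusted p = 0.0023). UQCR-C1 held 7 of the 19 events that rose against leg. In complex IV the skip of 412 coding bases in COX4 (2L, 19958768 to 19959751) had 4519 and 8000 reads in IFM, 81 and 92 in leg and 75 and 76 in brain. It was 2.39% of the gene's exon counts in IFM, 0.181% in leg and 0.206% in brain, and rose by 2.47 ± 0.37 (adjusted p = 0.0018) and 2.29 ± 0.36 (adjusted p = 0.0025). The coding length left out was a multiple of 3 in the skip of Cyt-c1 and not in those of UQCR-C1 (976 bases) and COX4.

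**Figure D5:**
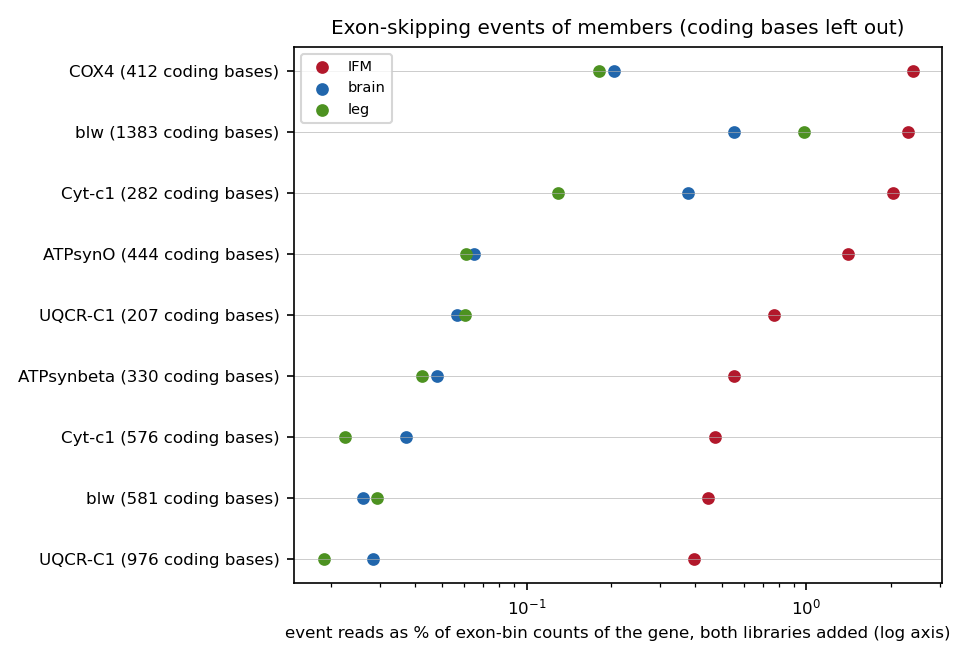
Reads of 9 exon-skipping events as a percentage of the exon-bin counts of their gene, on a log axis, with both libraries of a tissue added and the coding bases left out given beside each gene. The 9 were picked as most read in a tissue or most changed relative to their locus. They therefore do not show how skips of the members lie in general. The skips that were lower in IFM relative to their locus are not drawn. All 9 lie highest in IFM, where the typical gene is also higher (1.72% against 0.528% in brain and 0.520% in leg). Of the 9, the long skip of blw has the IFM value closest to its leg value.

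Among the member events that passed relative to their locus, the largest change was no skip. An event in ATPsynbeta (chromosome 4, 1031676 to 1031864), listed as an alternative donor and acceptor pair, has an annotated right end and a left end that is not annotated. It had 2759 and 5119 reads in IFM, 5 and 4 in leg and 4 and 1 in brain. It rose by 5.71 ± 0.51 against leg (adjusted p = 0.00014) and 5.81 ± 0.54 against brain (adjusted p = 0.00019). An alternative acceptor in UQCR-Q (3L, 17474834 to 17475049) was read least in brain. It had 682 and 1242 reads in IFM, 94 and 138 in leg and 4 and 17 in brain. Relative to its locus it was higher in IFM than in brain, by 1.99 ± 0.64 (adjusted p = 0.046), and for brain against leg it had the lowest p of the members without passing, at -2.73 ± 0.66 (adjusted p = 0.062).

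The events that were lower in IFM relative to their locus had between 87 and 622 reads over all libraries. The most read was a junction in UQCR-11 (3L, 25120796 to 25120878), with 232 and 240 reads in IFM, 28 and 36 in leg and 31 and 55 in brain. It came to -2.34 ± 0.54 against brain (adjusted p = 0.014) and did not pass against leg (-1.57 ± 0.54, adjusted p = 0.057). Because it is listed as an alternative acceptor, an alternative donor and a pair, it makes up 3 of the 7 lower calls against brain. A skip in Cyt-c1 (3L, 5360411 to 5361695) with 340 reads was lower against brain (-2.28 ± 0.55, adjusted p = 0.016) and did not pass against leg (adjusted p = 0.15), and a skip in COX5A with 141 reads passed against leg (-2.21 ± 0.60, adjusted p = 0.027) and not against brain (adjusted p = 0.053). An intron within an exon of COX4 (2L, 19959079 to 19959267) had 12 and 23 reads in IFM, 10 and 4 in leg and 25 and 13 in brain, and came to -2.35 against leg (adjusted p = 0.0496) and -4.12 against brain (adjusted p = 0.0048). A skip in UQCR-11 and a skip in UQCR-C2 were also lower in both comparisons. Over the members, 54 skips had 50 reads or more, and 53 of these left out coding bases. In 24 of the 53 that length was a multiple of 3 and in 29 it was not.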

How the data were processed

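The authors deposited raw counts per exon bin and raw fortuna read counts per event, library and read end. Their gene tables hold fold changes and p-values, which were not used, and a mean signal (normalized counts), used only beside Cyt-c-d. Per the labels' processing notes, reads were handled with STAR 2.7.3a, SAMtools 1.1, featureCounts of Subread 2.0.0 and DESeq2 1.32.0 on BDGP6. The counter behind the exon bins and its strand setting are not given in the sources used here. The study describes stranded reads and LC Sciences for all tissues, where the labels name GENEWIZ for IFM.

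Members and lists were chosen with earlier results of these data known. The named genes were the 2 highest members per role by CPM per kilobase in IFM, the 3 largest changes per direction, each paralog, and the events most read or most changed, and further genes were chosen after their values were seen. Bins were summed per gene. Both read ends were added. Genes, bins and events with at least 50 counts over the 6 libraries were tested with edgeR 4.0.16 (R 4.3.3; TMM, quasi-likelihood F test, diffSpliceDGE for bins), tissue as the only factor, 6 libraries in 1 fit, Benjamini-Hochberg adjustment over all features, threshold 0.05. The same adjusted p is meant throughout. The locus test used the log of tissue-mean gene CPM plus 0.1 as an offset, because exon columns carry no replicate number, with TMM computed after the offset. In simulated data this order called 8 of 15591 unchanged events and the reverse order 668. The simulation used a fixed spread and random offsets, not those of these libraries. On the member events the reverse order, added after seeing the data, changed the calls little. It gave 22 against leg (19 higher and 3 lower in IFM) and 24 against brain (15 higher and 9 lower). Events shared by 2 genes had no locus test. Tables and plots were made in Python 3.11.15 (pandas 2.3.3, numpy 2.4.6, matplotlib 3.10.9). The study calls the libraries biological duplicates. Their spread alone is what a p-value measures here. Replicate differences of the event tables were not correlated between tissues (0.000831, 0.0118 and 0.0219). That cannot show whether libraries of the same number came from the same animals. Alternatives were total counts, a minimum of 10, DESeq2 1.42.0, limma 3.58.1 for bins, the highest bin per gene, the 4 libraries compared, a replicate block and each library left out. Sequences of the members were not used here.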

Additional observations from a re-analysis of the deposited data

How the results depend on the processing

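With 2 libraries per tissue, small differences could not be resolved, and events with few reads carry wide errors. Of 1675 values of named genes, bins and events under an alternative, 1580 kept direction and side of the threshold, 74 fell below it, 19 rose above it and 2 reversed, both for Cyt-c-d from its unshared bin (3.04 and 2.65, against IFM-lower values from all bins). Of the 74, 24 arose under total counts and 18 without leg exon library 2. In expression of brain against leg, 26 members passed, 7 with total counts and between 10 and 26 with a library left out, the lowest without leg exon library 2. The same range was 30 to 35 for IFM against leg and 32 to 35 for IFM against brain. For exon use the ranges were 7 to 17 (20 with all libraries), 15 to 26 (27) and 5 to 8 (10), for IFM against leg, IFM against brain and brain against leg. For events they were 43 to 56 (55), 53 to 68 (67) and 7 to 17 (17), and relative to locus 18 to 29 (23), 12 to 31 (25) and 0 to 1 (0). Events of brain against leg numbered 9 with total counts, 10 with a minimum of 10 and 11 with only the 4 libraries compared. Relative to locus, brain against leg gave 1 with total counts, 2 with a minimum of 10 and 1 when scaled to exon counts of the tissue, an alternative added after seeing the data. Scaled that way, the split of calls was 30 higher and 0 lower against leg and 26 and 3 against brain. The cause of these changes was not tested.

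The replicate block, fitted for events only, gave 57, 68 and 16 calls for events and 23, 28 and 2 relative to locus, in the order above. The sample titles do not say whether replicate numbers pair the tissues. No paired analysis was possible for expression and exon use because the exon columns carry no replicate numbers. TMM scaling from summed bins was not run for events, since exon columns could not be matched to event libraries.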
